A study of Mus musculus with 12 samples.

Results

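Chromosome 6, chromosome 8 and the part of chromosome 12 beyond 40 Mb are stretches of the autosomes where mouse embryonic stem cells with a deletion in ALKBH5 held a smaller share of their histone mark peaks than wild-type cells. They were selected on the genotype difference in the share of peaks, in these same libraries. Their members are all deposited peaks with a midpoint there in GRCm39: 46334 of the 336278 peaks in 12 lists, of which 317678 lie on chromosomes 1 to 19. Chromosome 6 holds 19921 of them, chromosome 8 holds 17480 and distal chromosome 12 holds 8933. Because the genotype difference chose the segments, the lower shares and every other difference between the genotypes given here are descriptions, and no test of genotype was made.

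The cells were E14TG2a, a mouse embryonic stem cell line. The mutant cells carried a deletion in Alkbh5 that the labels call del-cIDR, where IDR stands for an intrinsically disordered region. The control cells were wild type (WT). All were grown in serum medium with LIF, the MEK inhibitor PD0325901 and the GSK3 inhibitor CHIR99021. CUT&Tag, which tags chromatin at a bound antibody, gave the H3K4me3 and H3K27ac libraries, and CUT&RUN, which cuts it there, the H3K9me3 libraries. There are 2 libraries per genotype for each of the 3 marks. The labels do not say whether these came from separate cultures, nor whether the mutant is 1 clone, so the spread between replicates may be technical.

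H3K4me3 is deposited at the promoters of active and poised genes, and H3K27ac at active promoters and enhancers. H3K9me3 covers heterochromatin and silenced repeats. ALKBH5 removes N6-methyladenosine from RNA. Per RefSeq's annotation of GRCm38.p6, chromosome 6 carries Nanog and Dppa3, which encode proteins of the pluripotent state, and the Hoxa cluster of patterning genes. Chromosome 8 carries Klf2, Sall1 and Zfp42, which encode stem cell transcription factors. Chromosome 12 carries Esrrb, a naive pluripotency factor, and the imprinted genes Dlk1 and Meg3. The peaks are on GRCm39 and no annotation of that build was used here, so no peak was assigned to a gene and the cell type was not checked against marker genes.

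The H3K4me3 lists held 18367 and 18794 peaks on chromosomes 1 to 19 in del-cIDR, against 19055 and 19242 in WT. The H3K27ac lists held 27883 and 32353 peaks in del-cIDR, against 25153 and 22810 in WT. The H3K9me3 lists held 34154 and 37789 peaks in del-cIDR, against 20895 and 41183 in WT. WT replicate 1 of H3K9me3 stands apart, with the fewest peaks of its mark and a median width of 369 bp, against 580 to 743 bp in the other 3 libraries. The lists give neither read counts nor a control library. Read depth is therefore unknown, and fewer DNA copies of a segment and less mark per copy cannot be told apart.

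All 3 marks gave the 3 segments a smaller share of the autosomal peaks in del-cIDR. The share is the percentage of a list's chromosome 1 to 19 peaks that lie in the segment, which takes out differences in list length. Together the segments held 13.5% and 13.6% of the H3K4me3 peaks in the del-cIDR libraries, against 14.3% in both WT libraries. For H3K27ac the shares were 13.2% in both del-cIDR libraries, against 15.2% in both WT libraries. For H3K9me3 they were 14.4% and 14.6% in del-cIDR, against 17.4% and 15.9% in WT. The genotypes did not overlap in any of the 3 marks, and the WT libraries of H3K9me3 differed most from each other.

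Chromosome 6 differed most in H3K27ac. Its H3K27ac share was 5.67% and 5.80% in del-cIDR, against 6.66% and 6.69% in WT, a log2 ratio of the means of -0.22 (range over the 4 pairs of libraries -0.24 to -0.20). That is 14.1% fewer peaks for the size of the list. Its H3K9me3 share was 6.48% and 6.55% in del-cIDR, against 7.57% and 7.05% in WT, a log2 ratio of -0.17 (-0.22 to -0.11). Among H3K9me3 peaks with the authors' −log10 q at 5 or more, which keeps 1.76% to 2.58% of each list, the ratio was 0.13. The promoter mark H3K4me3 differed least, with shares of 5.22% and 5.30% in del-cIDR, against 5.52% and 5.63% in WT (log2 ratio -0.08, range -0.11 to -0.06).

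On chromosome 8 the order of the marks was another. H3K9me3 had the largest difference there, with 5.14% and 5.15% of the peaks in del-cIDR, against 6.55% and 5.69% in WT (log2 ratio -0.25, range -0.35 to -0.14). The gap between the WT libraries, 6.55% and 5.69%, was larger than that between the lower WT library and the del-cIDR ones, and without WT replicate 1 the log2 ratio was -0.14. With the −log10 q minimum of 5 and all 4 libraries the ratio was -0.66, but the peaks left there were about as many in each genotype. They numbered 40 and 55 in del-cIDR, of 697 and 976 left on chromosomes 1 to 19. In WT they numbered 40 and 54, of 367 and 766, and WT replicate 1 had the shortest list. For H3K27ac the shares were 5.21% and 5.07% in del-cIDR, against 5.45% and 5.66% in WT (-0.11, range -0.16 to -0.07). For H3K4me3 they were 5.57% and 5.58% in del-cIDR, against 5.87% and 5.83% in WT (-0.07, range -0.08 to -0.06).

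Distal chromosome 12 had the largest difference of any segment and mark, in H3K27ac. The share of that mark was 2.30% in both del-cIDR libraries, against 3.09% and 2.83% in WT. The log2 ratio was -0.36 (-0.42 to -0.30), or 22.2% fewer peaks for the size of the list. The peaks themselves numbered 642 and 745 in del-cIDR, against 777 and 646 in WT, so the counts of the genotypes overlapped. H3K9me3 shares were 2.75% and 2.89% in del-cIDR, against 3.30% and 3.12% in WT (-0.19, range -0.26 to -0.11). H3K4me3 shares were 2.71% in both del-cIDR libraries, against 2.95% and 2.87% in WT (-0.10, range -0.12 to -0.08). With the −log10 q minimum of 5 the ratio was 0.23 for H3K9me3 and -0.047 for H3K4me3. With all peaks, in each of the 9 combinations of segment and mark both del-cIDR libraries lay below both WT libraries, as the selection requires.

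**Figure D1:**
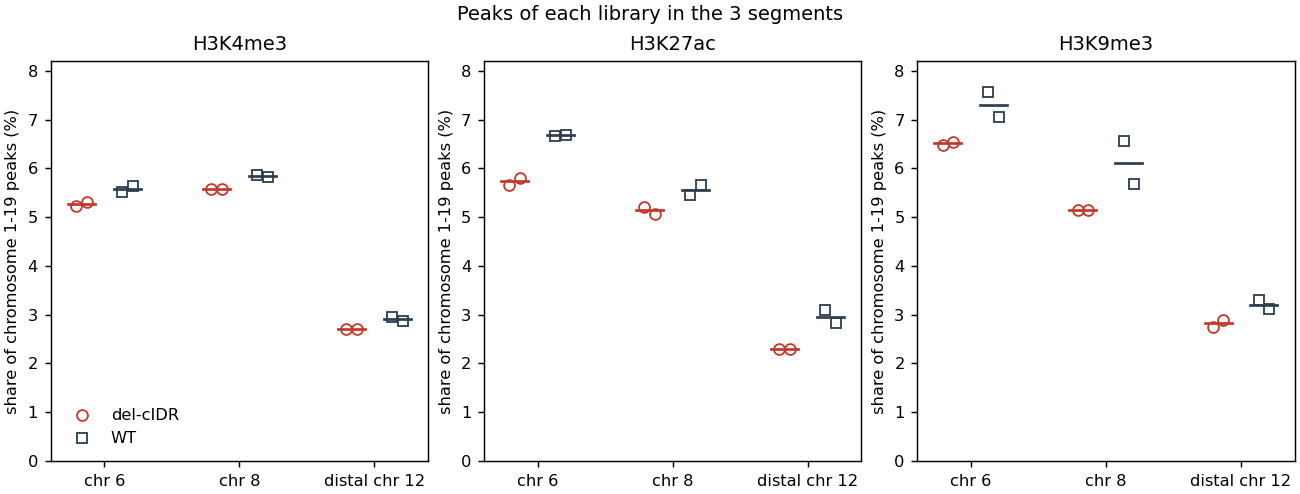
Share of each library's chromosome 1 to 19 peaks (%, y axis) in each segment (x axis), 1 panel per mark; circles are del-cIDR libraries, squares WT libraries and bars the group means (n = 2 each). The del-cIDR libraries lie below the WT libraries in every segment and mark.

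The rest of the autosomes was divided into 17 units, the 16 other whole chromosomes and chromosome 12 up to 40 Mb. Their log2 ratios ran from -0.018 to 0.06 in H3K4me3, from -0.023 to 0.10 in H3K27ac and from -0.04 to 0.08 in H3K9me3. The 3 segments were the lowest 3 of the 20 units in each mark. Among the 17, only chromosome 11 had both del-cIDR libraries below both WT libraries, in H3K4me3 (-0.018) and in H3K9me3 (-0.012). Proximal chromosome 12 differed from the distal part: its ratio was -0.016 for H3K4me3, 0.05 for H3K27ac and -0.04 for H3K9me3, and the pair range crossed 0 for H3K4me3 and for H3K9me3.

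**Figure D2:**
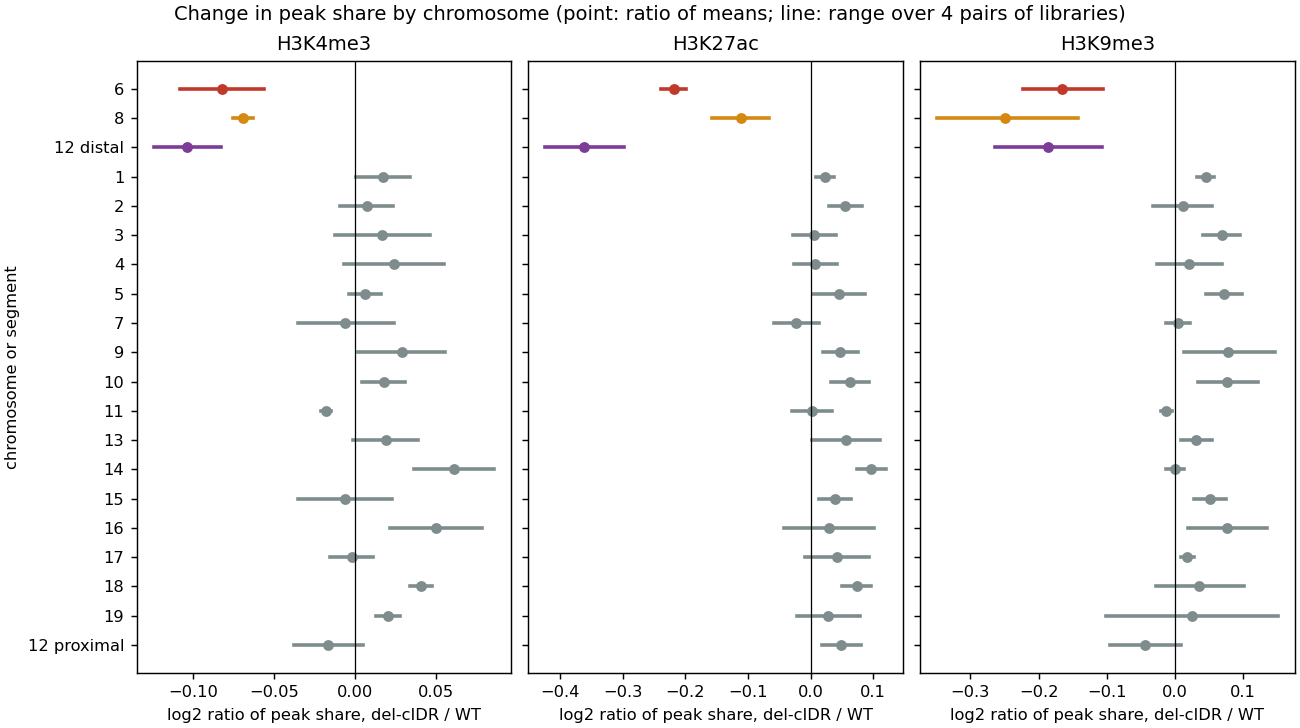
Log2 ratio of peak share, del-cIDR over WT (x axis), for each chromosome or segment (y axis); points are ratios of the group means and lines the range over the 4 pairs of libraries, coloured for the 3 segments and grey for the other 17 units. The segments lie to the left of all grey points in each panel, and the scale of the x axis differs between panels.

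By the ratio of the means the largest difference was in H3K27ac on chromosomes 6 and distal 12, and in H3K9me3 on chromosome 8. The pair ranges of these marks overlapped on chromosomes 6 and 8, so the order of the marks there is not settled. In H3K27ac distal chromosome 12 lay below chromosome 6 by 0.14 on the log2 scale and below chromosome 8 by 0.25, and chromosome 6 lay below chromosome 8 by 0.11, each in 4 of 4 pairs of libraries. In H3K9me3 chromosome 6 lay above chromosome 8, by 0.08, in all 4 pairs. There distal chromosome 12 lay below chromosome 6 in 3 pairs and below chromosome 8 in 1. In H3K4me3 the 3 log2 ratios lay within 0.035 of one another, and only distal chromosome 12 against chromosome 8 kept its sign in all 4 pairs (-0.035). These are differences between segments over the same libraries, so they share the libraries' errors.

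The lower share was spread over many bins of each segment, though not evenly. The segments were selected on the shares of these libraries, so an excess of lower bins over other autosomes follows in part from the selection. The segments were cut into fixed bins of 5 Mb, and a bin was counted for a mark if it held a mean of at least 10 peaks over its 4 libraries. In H3K4me3 both del-cIDR shares were below both WT shares in 36 of 65 bins, beside 22.6% of all autosomal bins, and above both in 7, beside 23.5%. In H3K27ac they were below in 41 of 68 bins, beside 21.7%, and above in 2, beside 24%. In H3K9me3 they were below in 47 of 72 bins, beside 18.2%, and above in 0, beside 21.6%. On the autosomes outside the segments the same pattern held for 62 of 369 bins in H3K4me3, 61 of 403 in H3K27ac and 44 of 427 in H3K9me3.

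Each segment shows this, with the marks in a different order. Chromosome 6 had 15 of 29 such bins in H3K4me3, 21 of 29 in H3K27ac and 18 of 30 in H3K9me3. Chromosome 8 had 12 of 23, 10 of 25 and 17 of 26 in the same order of marks, and all 26 of its H3K9me3 bins had a log2 ratio below 0. Distal chromosome 12 had 9 of 13, 10 of 14 and 12 of 16, and all 14 of its H3K27ac bins had a log2 ratio below 0.

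**Figure D3:**
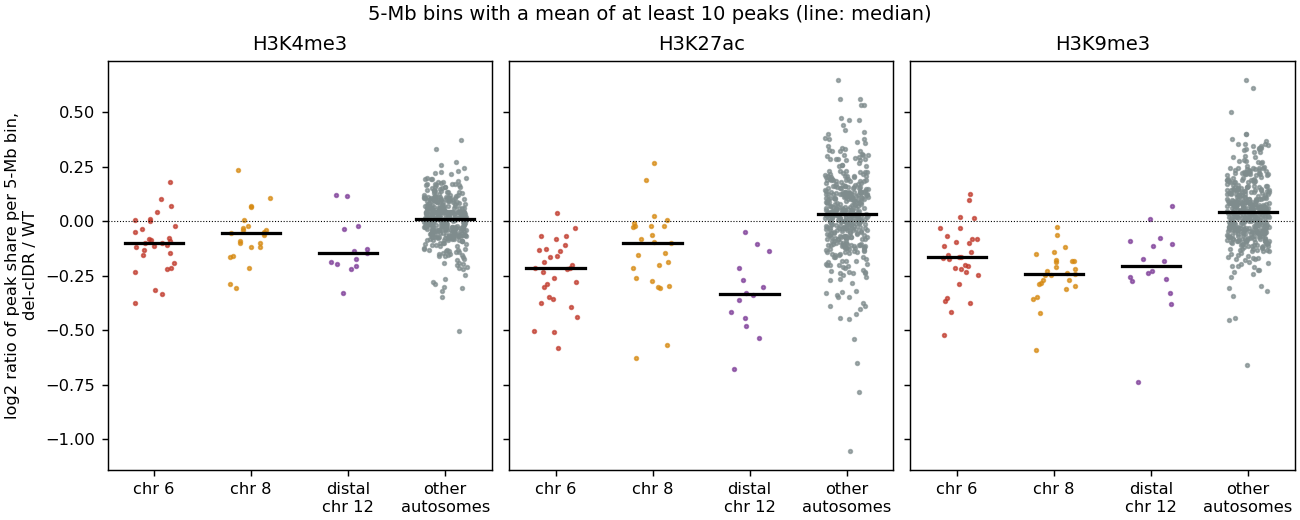
Log2 ratio of peak share per 5-Mb bin, del-cIDR over WT (y axis), in the 3 segments and the other autosomes (x axis), 1 panel per mark; each point is a counted bin and the bar is the median. The segments' median lies below 0 in every panel, at -0.33 for H3K27ac on distal chromosome 12 against 0.033 on the other autosomes, and the bins of the segments overlap those of the other autosomes.

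The 3 marks lay below 0 together in most bins of the segments. Of the 65 segment bins counted in all 3 marks, 43 had a log2 ratio below 0 in each mark, against 28 of 368 bins on the other autosomes. None of the 65 was above 0 in each mark, whereas 82 of the 368 were. By the stricter rule, both del-cIDR shares below both WT shares in all 3 marks, 15 of the 65 qualified, beside 4.39% of all autosomal bins. These were 8 of 29 on chromosome 6, 2 of 23 on chromosome 8 and 5 of 13 on distal chromosome 12. The segments were selected on lower shares in these marks, so agreement of the 3 marks follows in part from the selection. The marks share no library but come from the same genotypes, and bins next to one another are not independent.

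Long runs were seen among the bins counted in all 3 marks, with the bins not counted passed over. With the log2 ratios averaged over the 3 marks, 18 successive counted bins of chromosome 6 lay below 0, 17 on chromosome 8 and 14 on chromosome 12. The run on chromosome 12 starts with the bin from 35 to 40 Mb, which lies outside the segment. The longest such run elsewhere had 5 bins, on chromosome 16. Below 0 on average lay 28 of the 29 bins of chromosome 6, 21 of the 23 of chromosome 8 and 16 of the 21 of the whole of chromosome 12, against 114 of 360 on the 16 other autosomes.

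The bins at the extremes show the range within a segment. On chromosome 6 the lowest mean was in the bin from 20 to 25 Mb, -0.37 over the 3 marks, with 20 and 24 H3K27ac peaks in del-cIDR, against 29 and 21 in WT lists of fewer peaks. As shares these were 0.072% and 0.074% in del-cIDR, against 0.115% and 0.092% in WT. The bin from 50 to 55 Mb had the highest mean, 0.0039, and there the H3K4me3 share was higher, at 0.327% and 0.346% in del-cIDR, against 0.310% and 0.317% in WT. Its H3K27ac ratio was still -0.19.

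On chromosome 8 the bin from 55 to 60 Mb was lowest, with a mean of -0.42 and an H3K27ac ratio of -0.63. It is a thinly marked bin, with 10 and 12 H3K4me3 peaks in del-cIDR, against 14 in both WT libraries, so its ratios rest on few peaks. The bin from 10 to 15 Mb was highest, with a mean of 0.05. Its H3K27ac share was higher in del-cIDR, 0.273% and 0.278%, against 0.239% and 0.219% in WT, while its H3K4me3 share was lower, 0.267% and 0.255%, against 0.278% and 0.281% in WT.

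On distal chromosome 12 the bin from 75 to 80 Mb was lowest, with a mean of -0.38. Its H3K27ac list held 57 and 66 peaks in del-cIDR, against 88 and 69 in WT, or 0.204% in both del-cIDR libraries, against 0.350% and 0.302% in WT. All 3 marks were lower in both del-cIDR libraries there. The bin from 100 to 105 Mb was highest, with a mean of -0.05. The bin from 105 to 110 Mb, chosen after its values were seen, had the lowest H3K9me3 ratio of the segments, -0.74, with 30 and 39 peaks in del-cIDR, against 34 and 64 in WT, while its H3K4me3 share was higher in both del-cIDR libraries.

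The limit at 40 Mb on chromosome 12 was part of the rule and is not a sharp edge in these bins. Just inside it, at 40 to 45 Mb, the log2 ratio was -0.33 for H3K4me3, -0.14 for H3K27ac and -0.07 for H3K9me3, and the genotypes overlapped in the last 2 marks. Just outside it, the bin from 35 to 40 Mb had -0.08, -0.06 and -0.08 in the same order, and the genotypes overlapped in each mark. Further toward the centromere, the bins from 15 to 20 Mb and from 20 to 25 Mb were lower in both del-cIDR libraries in all 3 marks although they lie outside the segment.

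Each segment was also cut by position into 3 parts, with about as many bins in each. Chromosome 6 was nearly even. Its log2 ratios from the proximal to the distal part were -0.09, -0.09 and -0.07 in H3K4me3, -0.19, -0.20 and -0.26 in H3K27ac, and -0.18, -0.14 and -0.17 in H3K9me3. Chromosome 8 ran lower toward its distal end in the active marks, with -0.02, -0.07 and -0.10 in H3K4me3 and -0.08, -0.12 and -0.14 in H3K27ac. The pair ranges of neighbouring parts overlapped in both marks. In the proximal part the genotypes overlapped in H3K4me3 (pair range -0.05 to 0.0094). In H3K9me3 chromosome 8 was even, at -0.26, -0.24 and -0.25. Distal chromosome 12 was lowest in its middle, from 70 to 95 Mb, in all 3 marks: -0.15 in H3K4me3, -0.46 in H3K27ac and -0.30 in H3K9me3. Its outer parts had -0.14 and -0.03, -0.26 and -0.30, and -0.08 and -0.24 in the same order of marks. The pair range of the middle overlapped that of the proximal part in H3K4me3 and that of the distal part in H3K9me3. Only in H3K27ac did it lie below those of both outer parts.

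Regions with a peak in every library of a mark let peak width be compared at the same places. Overlapping peaks were merged (by 1 bp or more), and the width of a region in a library was the number of bases under its peaks. Each library was divided by its own median width over such regions of the other autosomes, so that a narrower region means narrower than the rest of that library. There were 2149 such H3K4me3 regions in the segments, 1846 for H3K27ac and 2361 for H3K9me3. Regions in all 4 libraries cannot enter through 1 genotype alone.

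Shared regions of the 3 segments were narrower in del-cIDR for the width of their library, most of all in H3K9me3, though without scaling those of H3K27ac and H3K9me3 were wider. The median log2 ratio of scaled width for H3K9me3 was -0.30 on chromosome 6, -0.33 on chromosome 8 and -0.33 on distal chromosome 12, against -0.09 on the other autosomes. In H3K27ac it was -0.15, -0.12 and -0.14 in the same order, against -0.05 on the other autosomes. In H3K4me3 it was -0.037, -0.038 and -0.037, against -0.0041. Without del-cIDR replicate 2 the H3K4me3 ratio on chromosome 6 was -0.022, and without WT replicate 1 the H3K9me3 ratios were -0.18, -0.14 and -0.15 in the same order, against -0.0026 on the other autosomes. In each mark the segments were the lowest 3 of the 20 units, and the next was chromosome 7 at -0.015 in H3K4me3, chromosome 1 at -0.07 in H3K27ac and proximal chromosome 12 at -0.24 in H3K9me3.

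The values by library show how far this depends on the scaling. In H3K4me3 the median width on chromosome 6 was 1002 and 1027 bp in del-cIDR, against 1053 and 1060 bp in WT, while on the other autosomes it was 1072 and 1095 bp in del-cIDR, against 1078 and 1091 bp in WT. So H3K4me3 regions were narrower in base pairs too. In H3K27ac the median on chromosome 6 was 820 and 831 bp in del-cIDR, against 824 and 739 bp in WT, and the other autosomes had 871 and 890 bp in del-cIDR, against 794 and 726 bp in WT. There the whole library was wider in del-cIDR and the segment less so.

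H3K9me3 widths differed most between libraries of 1 genotype. On chromosome 8 the median was 960 and 1196 bp in del-cIDR, against 598 and 1151 bp in WT. The other autosomes had 1042 and 1274 bp in del-cIDR, against 496 and 1094 bp in WT. Unscaled, the segments' median log2 ratio was above 0 in H3K27ac (0.06 on chromosome 6, 0.09 on chromosome 8 and 0.07 on distal chromosome 12), where the other autosomes had 0.17. It was above 0 in H3K9me3 as well (0.26, 0.27 and 0.23), where the other autosomes had 0.46.

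Counted by region, 28.6%, 28.3% and 30.3% of the shared H3K4me3 regions on chromosomes 6, 8 and distal 12 were narrower in both del-cIDR libraries than in both WT libraries, beside 21.9% of all autosomal ones. Wider in both were 12.04%, 13.2% and 11.2%, beside 17.9%. In H3K27ac 35.0%, 30.9% and 34.2% were narrower, beside 27.2%, and 11.6%, 12.03% and 12.1% wider, beside 16.4%. In H3K9me3 26.7%, 29.5% and 26.3% were narrower, beside 20.1%, and 8.14%, 8.04% and 8.08% wider, beside 14%. Most shared regions in the segments fell in neither class in any mark.

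**Figure D4:**
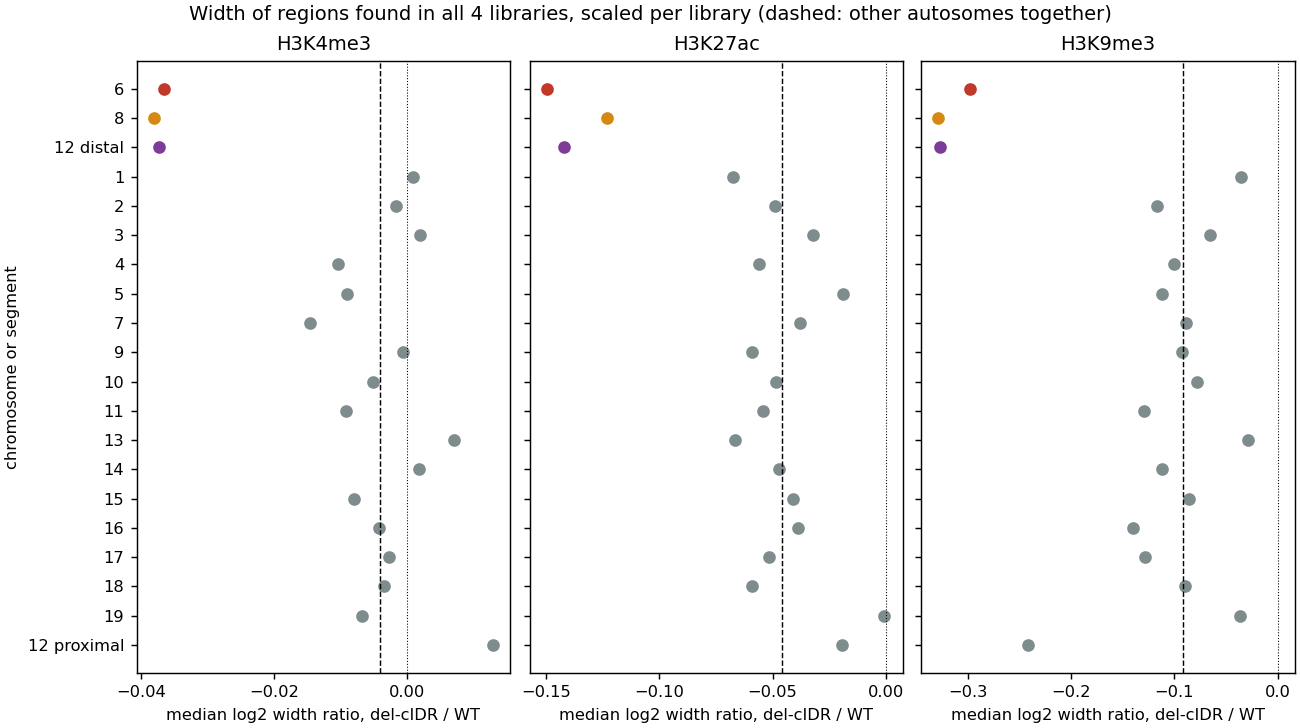
Median log2 ratio of scaled region width, del-cIDR over WT (x axis), at regions found in all 4 libraries, for each chromosome or segment (y axis); coloured points are the 3 segments, grey points the other 17 units, and the dashed line is the value for the other autosomes together. The segments have the lowest values in each panel, although unscaled ratios are above 0 in H3K27ac and H3K9me3, and in H3K9me3 proximal chromosome 12 lies next to them at -0.24.

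Peak strength did not follow share and width in every mark. The authors' fold enrichment, which compares a peak with the background of its own library, was ranked within each library among the same shared regions, so that 50 is the middle. On chromosome 6 the median H3K4me3 rank was 48.1 and 50.4 in del-cIDR, against 52.3 and 53.0 in WT. On chromosome 8 it was 47.3 and 47.2 in del-cIDR, against 48.9 and 48.8 in WT. On distal chromosome 12 it was 46.3 and 47.6 in del-cIDR, against 50.3 and 49.4 in WT. These medians were lower in both del-cIDR libraries in each segment, as on 1 of the 17 other units, chromosome 19. On the other autosomes together they were 50.4 and 50.2 in del-cIDR, against 49.9 and 50.01 in WT. Region by region the shift was small, with a median rank difference of -0.45 on chromosome 6, -0.46 on chromosome 8 and -0.96 on distal chromosome 12, and the other units ran from -0.77 to 0.45.

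H3K27ac ranks were lower on chromosome 6, at 46.0 and 47.1 in del-cIDR, against 49.1 and 50.5 in WT, and on distal chromosome 12, at 52.0 and 47.6 in del-cIDR, against 54.1 and 52.5 in WT. The same order was found on 3 of the 17 other units: chromosome 1, chromosome 2 (46.9 and 48.9 in del-cIDR, against 50.5 and 52.7 in WT) and chromosome 7. On chromosome 8 the genotypes overlapped, with 50.5 and 49.7 in del-cIDR, against 47.2 and 51.9 in WT. H3K9me3 went the other way on chromosomes 6 and 8. Its median rank on chromosome 6 was 47.3 and 47.0 in del-cIDR, against 41.5 and 45.3 in WT, and on chromosome 8 it was 56.7 and 54.2 in del-cIDR, against 49.0 and 53.1 in WT. Ranks were higher in both del-cIDR libraries on 1 of the 17 other units, chromosome 11. On distal chromosome 12 the genotypes overlapped, with 52.0 and 50.9 in del-cIDR, against 52.9 and 49.4 in WT. So on chromosomes 6 and 8 the shared H3K9me3 regions were narrower for their library and yet ranked higher in fold.

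Regions that came and went with the genotype were a small part of each segment. Of the H3K4me3 regions of the segments, 47 were found only in del-cIDR, with a peak in both libraries of that genotype and none in WT (21 on chromosome 6, 22 on chromosome 8 and 4 on distal chromosome 12), beside 2.01% of all autosomal regions. The opposite pattern was found at 132 (56, 44 and 32), beside 2.88%. As shares, del-cIDR-only regions made up 1.47% of the 3190 H3K4me3 regions in the segments, and WT-only regions 4.14%. On distal chromosome 12 the 2 shares were 0.626% and 5.01%.

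In the other marks regions of del-cIDR alone outnumbered those of WT alone, in the segments and on the other autosomes, and they made up a smaller share of the regions in the segments. In H3K27ac there were 329 del-cIDR-only regions (4.76%, beside 6.22% of all autosomal regions) and 206 WT-only regions (2.98%, beside 1.86%). In H3K9me3 there were 236 del-cIDR-only regions (2.72%, beside 4.12%) and 144 WT-only regions (1.66%, beside 0.996%). For each WT-only region there were 1.60 del-cIDR-only ones in H3K27ac and 1.64 in H3K9me3 within the segments, against 3.86 and 5.00 on the other autosomes. Proximal chromosome 12, outside the segments, had 3.38 in H3K27ac but 1.38 in H3K9me3 (29 del-cIDR-only and 21 WT-only regions). The low H3K9me3 value is therefore not particular to the segments.

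Regions missing from a single library tell the same by another count. Of the 251 H3K4me3 regions of the segments with a peak in exactly 3 libraries, 66.5% lacked a del-cIDR library, against 52.6% on the other autosomes. In H3K27ac it was 37.4% of 756, against 25.7%, and in H3K9me3 21.4% of 1357, against 13.0%. In H3K9me3 most such regions, in the segments and elsewhere, lacked a WT library.

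Among regions with a peak in every library of their mark, the leading ones had the following values. On chromosome 6 the H3K4me3 region chr6:71799993-71800874 had folds of 17.6 and 17.2 in del-cIDR, against 18.1 and 17.7 in WT, and H3K27ac in all 4 libraries. The H3K9me3 region chr6:103626009-103626254 had folds of 37.3 and 36.6 in del-cIDR, against 40.7 and 38.2 in WT, with widths of 243 to 245 bp. On distal chromosome 12 the H3K4me3 region chr12:55276923-55277732 had folds of 18.8 and 18.7 in del-cIDR, against 21.8 and 21.1 in WT. Folds of different libraries have different backgrounds, so these values are set side by side only to show the sites.

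On chromosome 8 the leading sites of both active marks lay close together. The top H3K4me3 region, chr8:19834519-19835355, had folds of 23.5 and 22.9 in del-cIDR, against 24.1 and 23.0 in WT. The top H3K27ac region, chr8:19834519-19835297, starts at the same base and had folds of 23.7 and 24.9 in del-cIDR, against 24.1 and 27.2 in WT. All 3 leading H3K4me3 regions and all 3 leading H3K27ac regions of chromosome 8 fell between 19748366 and 20698630. The same stretch and its flank held genotype-specific H3K9me3 sites in both directions: chr8:20725442-20725653 only in del-cIDR, with folds of 4.58 and 5.11, and chr8:20682521-20683074 only in WT, with folds of 5.08 and 5.06.

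Among genotype-specific regions, H3K4me3 ones were weak and some H3K27ac and H3K9me3 ones were strong. By the mean percentile of fold in the 2 lists that hold them, none of the 47 H3K4me3 regions found in del-cIDR alone reached the median of the lists, and 5 of the 132 found in WT alone did. On the other autosomes 3 of 411 and 16 of 525 did, in the same order. The strongest of the WT-only ones, chr8:50026583-50026963, had folds of 11.5 and 10.7 and overlapped H3K9me3 in 2 of its libraries. In H3K27ac 109 of the 329 regions of del-cIDR alone reached it, and 58 of the 206 of WT alone, against 942 of 2717 and 185 of 703 on the other autosomes. The leading one, chr6:33036511-33037310, was found only in del-cIDR, with folds of 17.8 and 16.4, above the 99th percentile of both lists, and carried H3K4me3 in all 4 libraries. On the WT side the leading one, chr6:116457349-116458057, had folds of 7.16 and 8.25.

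In H3K9me3 137 of the 236 regions of del-cIDR alone reached the median, and 79 of the 144 of WT alone, against 1175 of 2108 and 202 of 422 on the other autosomes. The leading del-cIDR-only one, chr6:135443041-135443227, had folds of 15.5 and 21.1 over peaks of 181 and 187 bp. The leading WT-only one on distal chromosome 12, chr12:45818298-45818457, had folds of 5.38 and 6.45 over 154 and 158 bp. These were short peaks, well under the median width of their lists.

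Over the 3 segments together, the share differed more among weak H3K27ac and H3K9me3 peaks than among strong ones, but not in each segment. Each list was cut into 4 classes of equal size by the authors' fold, and the share of the 3 segments was taken within each class. For H3K27ac the log2 ratio of the share was -0.31, -0.21, -0.19 and -0.11 from the weakest to the strongest class. In the weakest class the segments held 12.5% and 13.0% of the peaks in del-cIDR, against 15.8% in both WT libraries, and in the strongest 13.3% in both del-cIDR libraries, against 14.2% and 14.6% in WT. For H3K9me3 the ratios were -0.35, -0.14, -0.15 and -0.15, and the weakest class of WT replicate 1 held 19.4% of its peaks in the segments, against 16.1% in WT replicate 2. For H3K4me3 there was no order by strength, with -0.12, -0.01, -0.09 and -0.11. H3K9me3 on distal chromosome 12 had -0.21, -0.07, -0.22 and -0.23, and H3K27ac on chromosome 8 had -0.17, -0.07, -0.17 and -0.03. With a −log10 q minimum of 5, H3K27ac ratios were -0.23, -0.15 and -0.26 on chromosomes 6, 8 and distal 12. With all peaks they were -0.22, -0.11 and -0.36.

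H3K27ac sites away from H3K4me3, where that mark is mostly read as one of enhancers, differed more than those with H3K4me3. H3K27ac peaks without an overlapping H3K4me3 region had log2 ratios of -0.27 on chromosome 6, -0.16 on chromosome 8 and -0.53 on distal chromosome 12. Those with H3K4me3 had -0.14, -0.06 and -0.15 in the same order. On distal chromosome 12 the sites without H3K4me3 numbered 341 and 406 in del-cIDR, against 478 and 371 in WT, or 2.23% and 2.20% of all such autosomal sites in del-cIDR, against 3.36% and 3.03% in WT. The pair ranges of the 2 kinds of site did not overlap in any of the 3 segments. The other units were not split by kind of site, so whether this is particular to the segments was not tested. Whether it repeats the difference among weak H3K27ac peaks was not tested either.

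For H3K4me3 the kind of site mattered little on chromosomes 6 and 8. With H3K27ac its log2 ratio was -0.07 in each of the 3 segments. Without H3K27ac it was -0.11 on chromosome 6, -0.07 on chromosome 8 and -0.18 on distal chromosome 12, and on chromosomes 6 and 8 the pair ranges of the 2 kinds overlapped. H3K9me3 peaks overlapping H3K4me3 were few, 53 and 83 in del-cIDR, against 38 and 74 in WT over the 3 segments, and their shares varied too much between libraries to read.

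**Figure D5:**
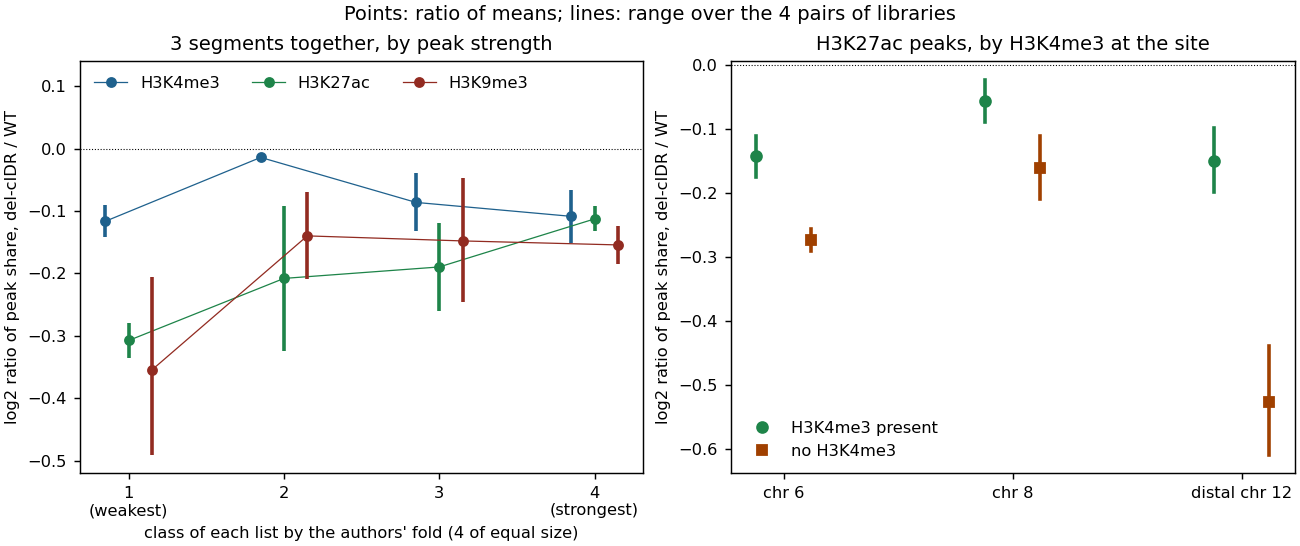
Log2 ratio of peak share, del-cIDR over WT (y axis), for the 3 segments together by class of the authors' fold (left, 1 line per mark) and for H3K27ac peaks with and without H3K4me3 in each segment (right); points are ratios of the group means and vertical lines the range over the 4 pairs of libraries. The H3K27ac ratio is -0.31 in the weakest class and -0.11 in the strongest, and the sites without H3K4me3 lie lower in all 3 segments.

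Overlap between the marks was set side by side for the segments and the other autosomes, without a test. Of their H3K4me3 regions found in all 4 libraries, 75.9% overlapped such an H3K27ac region, against 78.0% on the other autosomes. Of their H3K27ac regions 61.2% overlapped H3K4me3, against 62.4%. H3K9me3 overlapped 1.91% of the H3K4me3 regions, against 1.57%, and 4.55% of the H3K27ac regions, against 3.61%. Of the H3K9me3 regions 1.57% overlapped H3K4me3, against 0.977%, and 3.85% overlapped H3K27ac, against 3.15%. The highest overlap of H3K27ac with H3K9me3 among the segments was on chromosome 8, at 41 of 715 regions. By density, over all bins, counted or not, the median 5-Mb bin of the segments held 49.3 H3K27ac peaks in del-cIDR and 44.0 in WT. On the other autosomes it held 53.5 in del-cIDR and 40.5 in WT.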

How the data were processed

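The build was GRCm39 and the tools named are MACS2, BWA, fastp, Picard, SAMtools and featureCounts, per the submitters' processing notes. Their versions are not given here. The authors deposited 1 peak list per library, narrow peaks for H3K4me3 and H3K27ac and broad peaks for H3K9me3. Each deposited peak has a fold, a ratio to the background of its own library, and, on a −log10 scale, a q-value and a p-value. All are the authors' own values and served only to rank, describe or filter peaks of the same list. The weakest deposited −log10 q was 1.30 in the lists of narrow peaks and 1.00 in those of broad peaks, so weaker sites are missing.

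Peaks were placed by their midpoint. Peaks on X, Y and unplaced sequences were left out of the shares, bins and regions. Shares, 5-Mb bins, merged regions, widths and ranks were computed with Python 3.11.15, NumPy 2.4.6 and pandas 2.3.3. The code was tested on simulated lists with known shares and widths. Where a count or share is called lower, both del-cIDR libraries lie below both WT libraries. The rule is looser where a library is left out, when only the remaining ones are compared, and where libraries are paired by replicate number. An exact permutation test of 2 against 2 libraries cannot give a p-value below 0.333, and none was run.

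The segments, measures and gene lists were chosen with earlier results of these data known. Named regions are, per segment and mark, the strongest shared and genotype-specific ones by the mean percentile of fold, and named bins those with the lowest and highest ratio averaged over the marks and those beside 40 Mb. Values at listed genes were not computed, since no annotation of GRCm39 was used here. Alternatives tried were a minimum −log10 q of 5, lists of equal length, other denominators, bases under peaks, other bins, merging within 1000 bp, single-peak regions, no scaling, leaving out each library and pairing by replicate number.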

Additional observations from a re-analysis of the deposited data

How the results depend on the processing

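The log2 ratio of peak share was negative, the sign by which the segments were selected, in 79 of 81 combinations of segment, mark and alternative. The ratio of scaled or unscaled width lay below that of the other autosomes in 89 of 90. The exceptions were H3K9me3 peaks with a −log10 q of at least 5, which keeps 1.76% to 2.58% of each list, between 4 and 55 peaks per segment and library. With them the share ratio was 0.13 on chromosome 6, -0.66 on chromosome 8 and 0.23 on distal chromosome 12. On chromosome 8 the peaks kept numbered 40 and 55 in del-cIDR, against 40 and 54 in WT, so that ratio reflects the length of the lists. The width ratio was 0.00084 on chromosome 6 (10 regions), -0.091 on chromosome 8 and -0.10 on distal chromosome 12, and the 1 bin left was lower, beside 30% of all autosomal bins left. The same minimum gave share ratios of -0.15 for H3K27ac on chromosome 8, and of -0.26 for H3K27ac and -0.047 for H3K4me3 on distal chromosome 12. Width ratios were then -0.11, -0.085 and -0.081 for H3K27ac and -0.031, -0.031 and -0.030 for H3K4me3 on chromosomes 6, 8 and distal 12.

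Without scaling, width ratios were 0.060, 0.088 and 0.071 in H3K27ac and 0.26, 0.27 and 0.23 in H3K9me3, because every library is then compared in base pairs. Regions with a single peak per library gave -0.034 and -0.033 for H3K4me3 on chromosome 8 and distal 12. Lists of equal length gave share ratios of -0.24 for H3K9me3 on chromosome 6 and -0.078 for H3K4me3 on chromosome 8. They gave a width ratio of -0.37 for H3K9me3 on distal 12. The next values are share ratios. Leaving the segments out of the denominator gave -0.25 for H3K27ac on chromosome 6 and -0.082 for H3K4me3 on chromosome 8. Bases under peaks gave -0.27 and -0.29 for H3K9me3 on chromosomes 6 and distal 12, and -0.077 for H3K4me3 on chromosome 8. In 10-Mb bins 22 of 36 were lower in H3K4me3, beside 24.2% of all autosomal bins, and 28 of 36 in H3K9me3, beside 18.0%.

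With each library left out in turn, bins lower numbered 41 to 47 of 64 or 65 in H3K4me3, 50 to 53 of 68 or 69 in H3K27ac and 51 to 65 of 72 in H3K9me3, beside 34.6% to 39.9%, 32.3% to 36.4% and 29.1% to 37.5% of all autosomal bins. On chromosomes 6, 8 and distal 12, share ratios then ran from -0.097 to -0.068, -0.074 to -0.064 and -0.12 to -0.084 in H3K4me3. They ran from -0.24 to -0.20, -0.14 to -0.086 and -0.42 to -0.30 in H3K27ac, and from -0.22 to -0.11, -0.35 to -0.14 and -0.23 to -0.14 in H3K9me3. Width ratios ran from -0.042 to -0.022, -0.033 to -0.027 and -0.042 to -0.031 in H3K4me3, from -0.17 to -0.13, -0.14 to -0.092 and -0.17 to -0.13 in H3K27ac, and from -0.32 to -0.18, -0.44 to -0.14 and -0.38 to -0.15 in H3K9me3. The H3K9me3 values nearest 0 were those without WT replicate 1 in each segment, for width and for share. The share ratios without that library were -0.11, -0.14 and -0.14 on chromosomes 6, 8 and distal 12. The cause of the changes was not tested.

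Samples of both genotypes carry the same replicate numbers, but nothing says that these pair them, and deviations of same-numbered libraries correlated at -0.05, 0.0061 and 0.08 over bins. With the replicate block, bins qualified if each del-cIDR share lay below the WT share of the same number, a looser rule. In the 3 marks 42 of 65, 52 of 68 and 54 of 72 bins qualified, beside 29.5%, 29.7% and 23.8% of all autosomal bins. Share ratios ran from -0.36 to -0.07. Read depth is unknown.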
